A study of Mus musculus with 3 samples.

Results

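The cytosolic ribosomal protein genes were followed through immune cells of the healthy mouse kidney. The members were every gene column of the deposited count table named Rpl or Rps and a number (with a short suffix where there is one) together with Rpsa, without pseudogene columns and without the Rps6k kinases. The rule found 81 of 32886 gene columns, 49 of the large subunit and 32 of the small subunit, and used no measured value. At least 1 unique molecular identifier (UMI, the tag that marks 1 captured RNA molecule) was counted for 80 members, and 78 were counted in each of the 3 facilities where the data were produced. RefSeq lists 80 members as protein-coding and Rpl6l as a pseudogene. Names outside the rule, such as Rplp0, Rplp1, Rplp2, Fau and Rpl36al, were treated as a separate list.

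Untreated wild-type kidneys were divided into 3 compartments (cortex, OM for the outer part of the medulla, IM for its inner part), digested with enzymes and sorted for immune cells, which the study's methods give as CD45+ cells of male C57BL/6J mice, and 10x single-cell RNA sequencing followed. The series has 1 sample for each compartment, and the table splits each by facility (Aachen, Bonn or Hamburg), so that 9 libraries of 20266 cells in 23 clusters of the authors could be compared. The number of animals behind each library was not given in the sources used here, and p-values measure only the spread between these libraries. Libraries held 2122809 to 15267126 UMIs. Median UMIs per cell were 744 to 1270 in Aachen and 2802 to 3505 in Bonn and Hamburg, and Malat1, a nuclear RNA, took 6.57% to 9.62% of UMIs in Aachen libraries against 0.786% to 1.07% in the others. Hamburg values were not whole numbers, so they are estimated counts. Any 2 facilities shared 54 to 81 cell barcodes, summed over their 9 pairs of libraries, and the libraries of 1 facility shared 0 to 16, summed over only 3 pairs. The class names held against their markers: summed Cd3d, Cd3e, Cd3g and Trac reached 20.8 to 38.9 UMIs per 10000 in T cells and 0.0616 to 1.79 in resident macrophages, and summed C1qa, C1qb, C1qc, Cd81, Csf1r and Adgre1 reached 171.5 to 253.5 in resident macrophages and 0.354 to 22.01 in T cells.

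Each ribosomal protein sits in the large (Rpl) or the small (Rps) subunit of the ribosome, the particle that translates messenger RNA. Most of these messenger RNAs begin with a stretch of pyrimidines, the TOP tract, through which growth signals adjust the translation of the whole set. Ribosomal protein transcripts form much of what single-cell assays capture from lymphocytes at rest. A few members have close relatives: Rps27l, for example, is a paralog of Rps27 known as a p53 target.

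RefSeq holds a start-site window (250 bases before to 50 after the listed start, GRCm38.p6) for 61 members. The windows below are 30 bases long and centred on that start, the first one listed for the gene. They show abundant members beside Rpl10 and the 2 paralogs whose make-up stood apart between cell types. For Rps27l the start used lies inside the gene, which RefSeq places at chr9:66944624-66949522. Capitals mark the longest unbroken run of C and T letters, the kind of stretch a TOP tract is made of.
Rps27 (chr3:90213634-90213663, minus strand): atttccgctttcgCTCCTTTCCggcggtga
Rps24 (chr14:24490663-24490692, plus strand): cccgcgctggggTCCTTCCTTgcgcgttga
Rpl13 (chr8:123102335-123102364, plus strand): TTCCCTTTCgcctgattttgattggcgttt
Rpl41 (chr10:128549154-128549183, minus strand): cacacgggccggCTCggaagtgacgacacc
Rps15a (chr7:118116133-118116162, minus strand): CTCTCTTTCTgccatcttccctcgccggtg
Rpl10 (chrX:74270801-74270830, plus strand): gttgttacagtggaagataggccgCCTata
Rps27l (chr9:66946071-66946100, plus strand): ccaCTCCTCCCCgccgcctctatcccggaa
Rpl7l1 (chr17:46782642-46782671, minus strand): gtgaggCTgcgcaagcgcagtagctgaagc
The run was 9 letters long in Rps27, Rps24 and Rpl13, and 10 in Rps15a. It was 3 letters long in Rpl10 and in the abundant Rpl41 and 2 in Rpl7l1, while Rps27l also held a run of 9. The runs of Rps27 and Rps24 spanned the listed start, but those of Rpl13, Rps15a and Rps27l lay wholly before it. By that start such runs lie outside the transcript and would not be TOP tracts, but no measured start sites were used. The count of runs that follows includes this kind. Within 50 bases either side of the start, a run of at least 8 C and T letters beginning with C was present in 49 of 61 members (80.33%), in 21 of 69 mitochondrial ribosomal genes (30.43%) and in 28.75% of all 27025 promoters. The letters CCGGAAG, searched on both strands of the 300 bases, were found in 24 members (39.34%), 25 mitochondrial ribosomal genes (36.23%) and 9.12% of all promoters. Among the 13636 promoters of genes with a UMI in the count table, 15.34% held these letters and 28.43% held such a run. These counts describe letters in windows and identify no bound factor.

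Summed over the members, ribosomal protein transcripts made up 17.2% to 22.1% of the UMIs of a whole library. The share differed far more between cell types. Clusters were made from the genes of these same cells, so the differences between clusters are given as a description without a test.

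**Figure D1:**
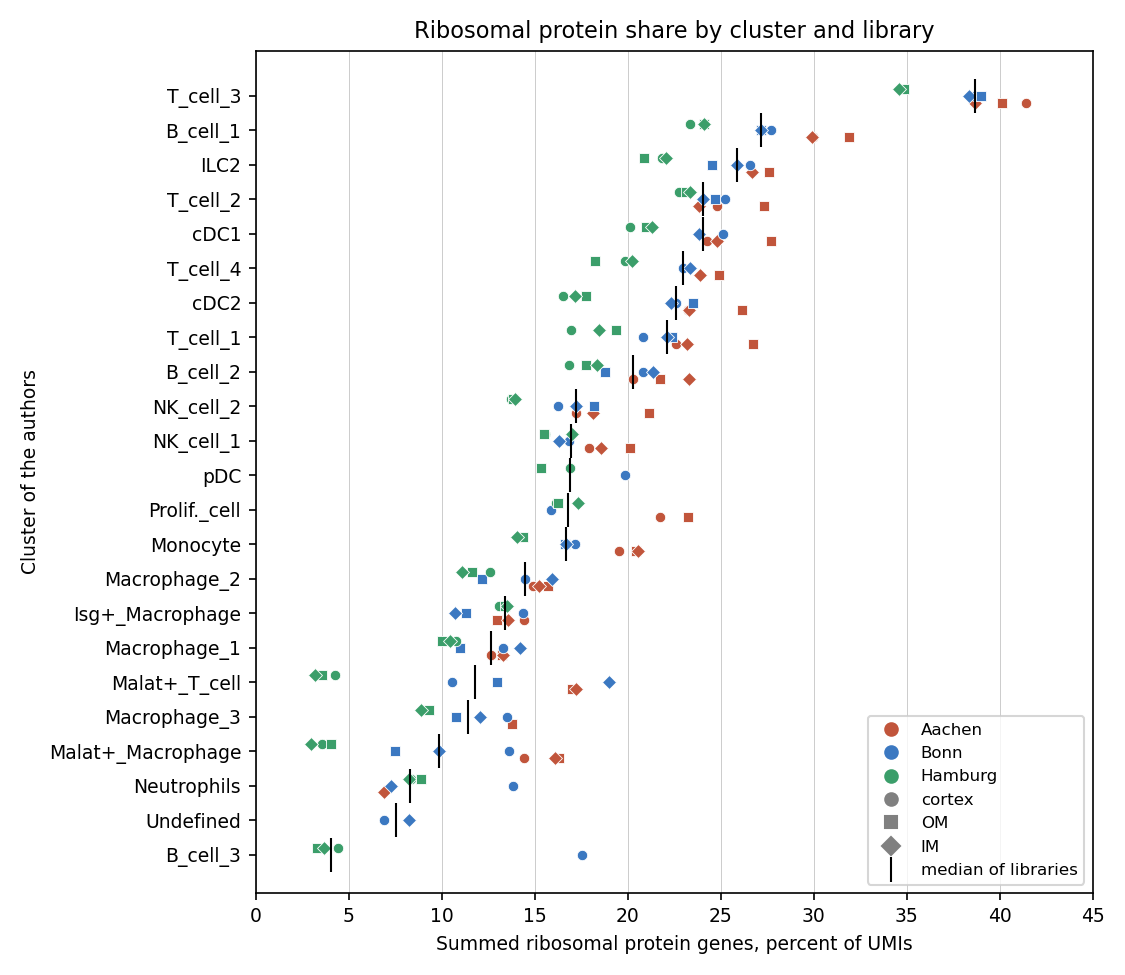
Share of UMIs in the summed ribosomal protein genes (percent, x axis) by cluster of the authors (y axis), 1 point for each library with at least 10 cells, coloured by facility and shaped by compartment, with the median of the libraries as a bar. T_cell_3 lies alone at the upper end (34.6% to 41.4%), macrophage clusters other than Malat+_Macrophage lie below 16%, and the clusters named Malat+ and B_cell_3 are widely spread by facility.

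T_cell_3 had the highest share. Its libraries ran from 34.6% through a median of 38.7% to 41.4%, and every one of the 9 lay above every library of every other cluster. B_cell_1 followed with a median of 27.2% (23.4% to 31.9%). T_cell_3 exceeded B_cell_1 within the same library by 10.6 ± 1.24 percentage points (SD, n = 9), in 9 of 9 libraries. T_cell_3 was also where genes of recirculating lymphocytes were high, from a list chosen after values were seen. Lef1, a transcription factor of naive T cells, stood at 5.30 ± 1.43 UMIs per 10000 (SD, n = 9) in T_cell_3 and 0.648 ± 0.242 in T_cell_1. The activation marker Cd44 stood at 0.312 ± 0.144 UMIs per 10000 in T_cell_3 and 1.74 ± 0.518 in T_cell_1. Median UMIs per cell, as the median of the libraries, were 3892 in T_cell_3, 3018 in T_cell_1 and 3042 in T_cell_2.

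In the middle of the order, some neighbours could not be separated. ILC2 (group 2 innate lymphoid cells, median 25.9%) exceeded T_cell_2 (24.1%) in only 5 of 9 libraries, and cDC2 (22.6%) exceeded T_cell_1 (22.1%) in 5 of 9. Between these pairs, cDC1 (24.1%) exceeded T_cell_4 (22.9%) by 1.49 ± 1.06 percentage points, in 7 of 7 shared libraries. A clear step came between B_cell_2 (20.3%) and NK_cell_2 (17.2%), which differed by 3.28 ± 1.66 percentage points in 9 of 9 libraries. Another lay between monocytes (16.7%) and Macrophage_2 (14.5%), which differed by 3.35 ± 1.53 points in 9 of 9 libraries. Macrophage_1 had a median of 12.7%, Macrophage_3 11.4% and neutrophils 8.28%.

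Grouped into classes, the 9 libraries of resident macrophages (Macrophage_1 to Macrophage_3 and Isg+_Macrophage) ran from 10.5% to 14.5%, with a median of 13.5%. NK cells ran from 14.4% to 20.4% (median 16.6%) and conventional dendritic cells (cDCs) from 18.6% to 26.5% (median 23.7%). T cells reached 22.3% to 29.8% (median 25.8%) and B cells 21.9% to 30.9% (median 26.6%). The resident macrophage libraries did not overlap with those of T cells, B cells or cDCs. Levels within a class also differed by facility, and in B cells, cDCs and NK cells every Hamburg library lay below every Bonn library.

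The clusters the authors named Malat+ gave no stable share. Malat+_Macrophage lay at 14.4% to 16.3% for Aachen libraries, 7.47% to 13.6% for Bonn and 2.96% to 4.02% for Hamburg. B_cell_3 held 225 of its 247 cells in Hamburg, where its share was 3.29% to 4.42% with Malat1 at 3.83% to 4.07% of UMIs and a median of 696 to 792 UMIs per cell. Over clusters, the share fell as Malat1 rose, with a Spearman rho of -0.65 in Aachen (21 clusters), -0.67 in Bonn (23) and -0.54 in Hamburg (23). The points of such a correlation share libraries and a denominator, and it is given as a description.

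The level of a single member was counted as UMIs per 10000 UMIs. Capture at the 3' end counts a molecule once whatever its length, but mapping differs between members, so the order is one of counts. With the 3 facilities weighted equally, Rps27, a small-subunit protein, led with 57.2 UMIs per 10000, followed by Rps24 (56.6), Rpl13 (52.1), Rps29 (46.4) and Rpl41 (45.6). This order was not shared by the facilities: Rps27 stood at 109.3, 37.8 and 24.3 UMIs per 10000 in Aachen, Bonn and Hamburg, and Rps24 at 27.9, 71.4 and 70.3. At the other end, Rps27l was counted at 1.52 UMIs per 10000, Rpl7l1 at 0.423, the muscle paralog Rpl3l at 0.0095 and Rpl39l at 0.0064. Rpl10l, a testis paralog, had no UMI. Rpl6l was counted in Aachen only, at 9.64 UMIs per 10000.

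The abundant members followed the share from class to class. Rpl13, a large-subunit protein, ran from 25.8 through 33.8 to 38.4 UMIs per 10000 in resident macrophages (lowest, median and highest of 9 libraries), from 37.5 through 42.4 to 63.4 in NK cells, and from 56.5 through 66.2 to 79.9 in T cells. Its T cell libraries all lay above its macrophage libraries. Rps24, of the small subunit, had medians of 39.1 UMIs per 10000 in resident macrophages, 57.5 in cDCs, 91.9 in T cells and 93.6 in B cells, but its lowest libraries, all from Aachen, stood at 18.4, 27.2, 36.1 and 40.9. Rpl41, the shortest ribosomal protein, had medians of 22.8 in resident macrophages, 45.4 in cDCs, 47.8 in T cells and 49.1 in B cells.

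Among themselves the members kept nearly the same proportions from one cell type to the next. The log2 profile of 77 members with at least 100 UMIs in every class correlated between classes of the same library with a median Pearson r of 0.97 (90 pairs), a correlation across genes, which are not independent replicates. Between the same class in Aachen and Bonn the median r was only 0.73, and between Aachen and Hamburg 0.66, while Bonn and Hamburg reached 0.98 (45 pairs each). The make-up of the ribosomal protein transcripts therefore differed more between Aachen and the other facilities than between cell types of 1 library.

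A set of members nevertheless differed in proportion between lymphocytes and macrophages in every library. The difference was taken as the log2 of a member's part of all ribosomal protein UMIs in T or B cells minus that in resident macrophages. Of 77 members, 12 were higher in T cells and in B cells in all 9 libraries and 19 were lower in all 9. The median absolute difference was only 0.16, and 7 members exceeded 0.5. The classes rest on clusters made from these genes among others, so these differences carry no test.

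**Figure D2:**
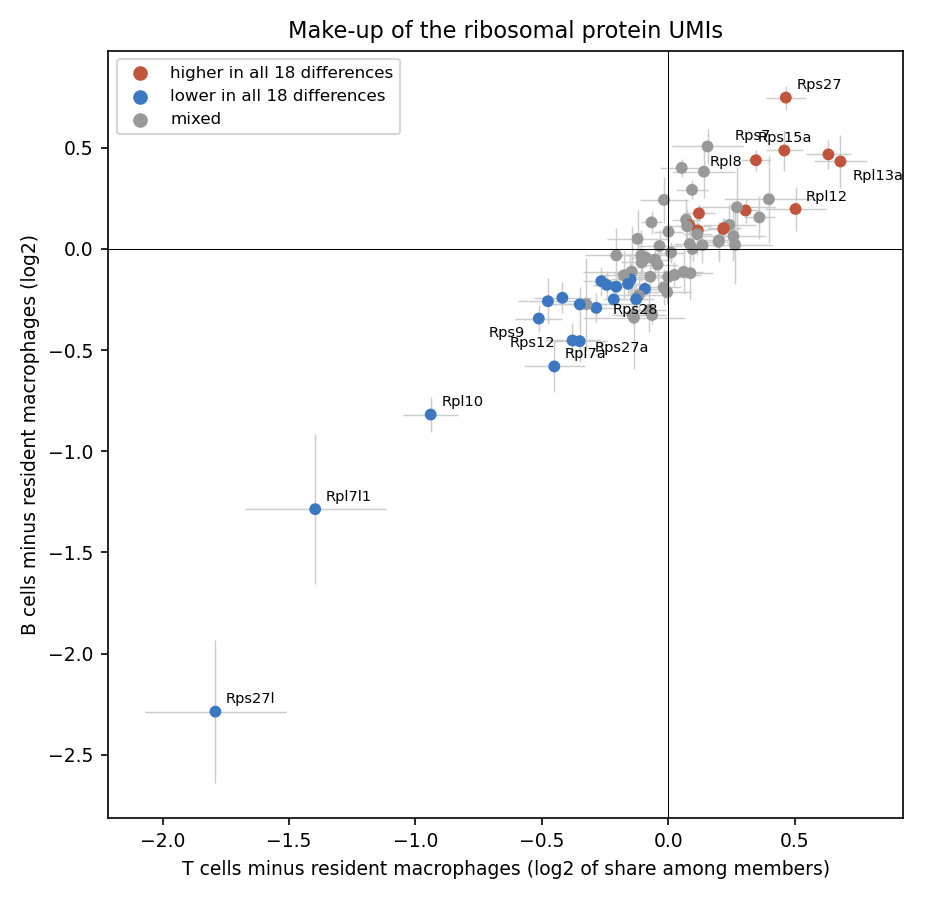
Difference in a member's part of all ribosomal protein UMIs (log2) between T cells and resident macrophages (x axis) and between B cells and resident macrophages (y axis), with 1 point for each of 77 members as the mean of 9 libraries and bars for the SD. Rps27l, Rpl7l1 and Rpl10 lie far below the rest on both axes, and Rps27, Rpl13a and Rps15a lie at the upper right.

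Rps27 stood furthest apart in B cells among the 12. Its part was higher by 0.75 ± 0.06 on the log2 scale (SD, n = 9) in B cells and by 0.46 ± 0.08 in T cells. Rpl13a, which also has a role outside the ribosome in silencing inflammatory transcripts, was higher by 0.68 ± 0.10 in T cells and 0.43 ± 0.13 in B cells. Rps15a was higher by 0.63 ± 0.09 in T cells and 0.47 ± 0.07 in B cells. Rps7, Rpl8, Rpl12, Rps16, Rpl18, Rps10, Rps3a1, Rpl9 and Rps24 made up the rest of the 12. As plain levels, Rps15a ran from 14.95 through 17.9 to 26.5 UMIs per 10000 (lowest, median and highest library) in resident macrophages and from 42.0 through 64.4 to 71.9 in T cells, and these libraries did not overlap.

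Rpl10, one of the last proteins to join the large subunit, was the abundant member that did not follow the share. Its level ran from 18.3 through 22.1 to 24.5 UMIs per 10000 in resident macrophages, from 21.4 through 23.5 to 25.7 in T cells and from 24.2 through 25.6 to 27.2 in B cells. The ranges overlapped although the summed members differed between these classes by far more, so the part of Rpl10 was lower by 0.94 ± 0.11 (log2, n = 9) in T cells and 0.82 ± 0.09 in B cells. A near-identical column, Rpl10-ps3, held 15.2 UMIs per 10000 in Aachen but 0.0957 in Bonn and 0.105 in Hamburg, and in Bonn alone the mean level of Rpl10 was 21.1 in resident macrophages and 23.8 in T cells. In cDCs Rpl10 reached 31.2 to 40.5 UMIs per 10000. Rpl7a, Rps9, Rps12, Rps27a, Rps25, Rpl26, Rps29 and Rps28 were among the 19 that were lower in lymphocytes.

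The paralogs departed most. Rps27l stood at 1.24 to 2.39 UMIs per 10000 in resident macrophages (median 1.55), 0.612 to 1.54 in T cells and 0.488 to 1.07 in B cells (median 0.671). Its part was lower by 1.79 ± 0.28 in T cells and 2.29 ± 0.35 in B cells, the opposite of Rps27. Monocytes (1.45 to 3.32) and cDCs (2.09 to 4.65) held more Rps27l. Rpl7l1, a paralog of Rpl7, lay at 0.284 to 0.573 UMIs per 10000 in resident macrophages and 0.206 to 0.480 in T cells, ranges that overlapped. Rpl7 itself lay at 7.20 to 11.0 and 11.5 to 18.8 in the same classes.

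Rpl22l1, the paralog of Rpl22, went with the lymphocytes. It stood at 2.11 to 2.84 UMIs per 10000 in resident macrophages, 4.81 to 8.14 in T cells and 6.22 to 10.5 in ILC2, and Rpl22 at 5.61 to 12.2, 9.78 to 20.7 and 10.8 to 20.8. Rpl3l was seen almost only in monocytes (0 to 0.485 UMIs per 10000) and neutrophils (0 to 0.283), and was at 0 in every library of resident macrophages and T cells, whereas Rpl3 stood at 8.65 to 15.2 and 17.4 to 28.5 in those classes. Rpl39l did not exceed 0.060 UMIs per 10000 in any class library, against 14.2 or more for Rpl39 in the classes of macrophages, T cells and B cells. Rpl36al, which the rule did not reach, lay at 3.56 to 5.07 UMIs per 10000 in resident macrophages and 7.56 to 9.07 in T cells, and its counterpart Rpl36a at 5.59 to 10.9 and 12.3 to 22.6. Rps4l was not analysed here, and Rps4x, the X-linked form, lay at 17.1 to 29.6 UMIs per 10000 in resident macrophages and 28.8 to 51.6 in T cells.

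The compartments are the comparison the series was made for. The medulla is poor in oxygen and rich in salt, and the question here was whether the ribosomal protein genes of the same cell class differ between compartments. In resident macrophages, T cells, B cells and cDCs the sign of the difference in share between medulla and cortex varied with the facility, and in NK cells it was the same in 3 of 3.

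**Figure D3:**
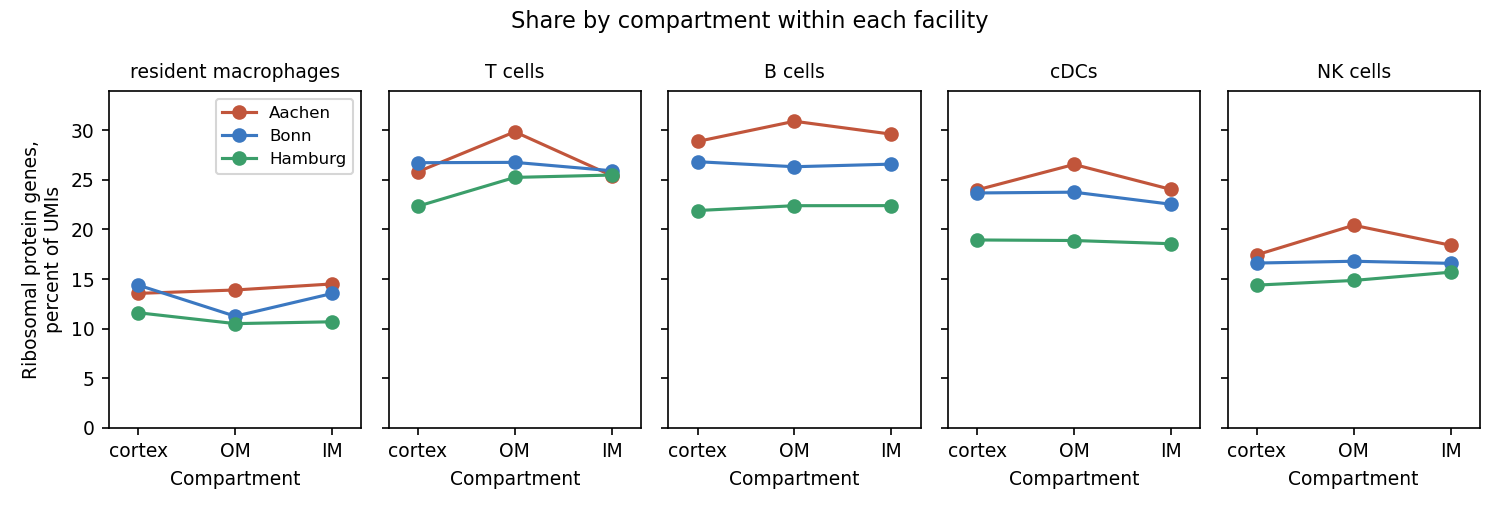
Share of UMIs in the ribosomal protein genes (percent, y axis) in cortex, OM and IM (x axis) for 5 cell classes, with a line for each facility. Lines cross or run flat, and Hamburg lies below the other facilities in every compartment in resident macrophages, B cells, cDCs and NK cells, and in cortex and OM in T cells.

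In resident macrophages the share in cortex, OM and IM was 13.6%, 13.9% and 14.5% in Aachen. It was 14.4%, 11.2% and 13.5% in Bonn, and 11.6%, 10.5% and 10.7% in Hamburg. Medulla (the mean of OM and IM) minus cortex was thus 0.646, -1.99 and -1.003 percentage points, with a mean of -0.783 ± 1.33 (SD, n = 3 facilities), and the facilities disagreed in sign. Macrophage_3 formed 42.9% to 44.7% of the class in Aachen OM, Bonn OM and Bonn IM and was not present among cells of Aachen and Hamburg cortex. Without it the mean was -0.479 ± 1.09.

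T cells of Aachen gave 25.8%, 29.8% and 25.4% in cortex, OM and IM. Those of Bonn gave 26.7%, 26.8% and 25.9%, and those of Hamburg 22.3%, 25.2% and 25.5%. Medulla minus cortex was 1.82, -0.388 and 3.02 points, a mean of 1.49 ± 1.73. T_cell_3 took 9.46% to 29.2% of T cells in a library. Without it the difference was 1.70, 0.694 and 2.14 points (1.51 ± 0.741), above 0 in 3 of 3 facilities. The clusters within the class did not share 1 sign. T_cell_1 gave 2.36, 1.45 and 1.97 points (1.93 ± 0.456), above 0 in 3 of 3. T_cell_2 gave 0.760, -0.855 and 0.469 points (0.125 ± 0.861). T_cell_3 gave -2.00, -0.022 and -0.128 points (-0.716 ± 1.11), below 0 in 3 of 3.

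Medulla minus cortex was 0.501 ± 0.880 points in B cells, 0.186 ± 0.982 in cDCs and 0.978 ± 0.952 in NK cells. NK cells were above 0 in 3 of 3 facilities, by 1.97, 0.076 and 0.887 points. OM and IM differed by -1.03 points on average in resident macrophages and by 1.67 in T cells, of which Aachen alone gave 4.41. The share is a score over the members, and its differences were not tested.

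For single members, UMIs were summed for each class and library and fitted with edgeR's quasi-likelihood test across all genes, with the facility as a block and Benjamini-Hochberg adjustment. The 78 members that passed the filter on low counts did not include Rpl3l, Rpl10l and Rpl39l. Every p of these fits compares libraries, not cells. At an adjusted p under 0.05, 0 of 78 members were called between medulla and cortex in any class. Over all genes tested the same fits called 1.24% in resident macrophages, 0.0335% in T cells, 0.0898% in B cells, 1.81% in cDCs and 0.0299% in NK cells. At an unadjusted p under 0.05 by edgeR the members numbered 0, 3, 0, 1 and 0 in that order. All genes at that threshold numbered 878 of 8687, 515 of 8957, 294 of 8911, 878 of 7293 and 149 of 3341. DESeq2 called 0 members in each class after adjustment.

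**Figure D4:**
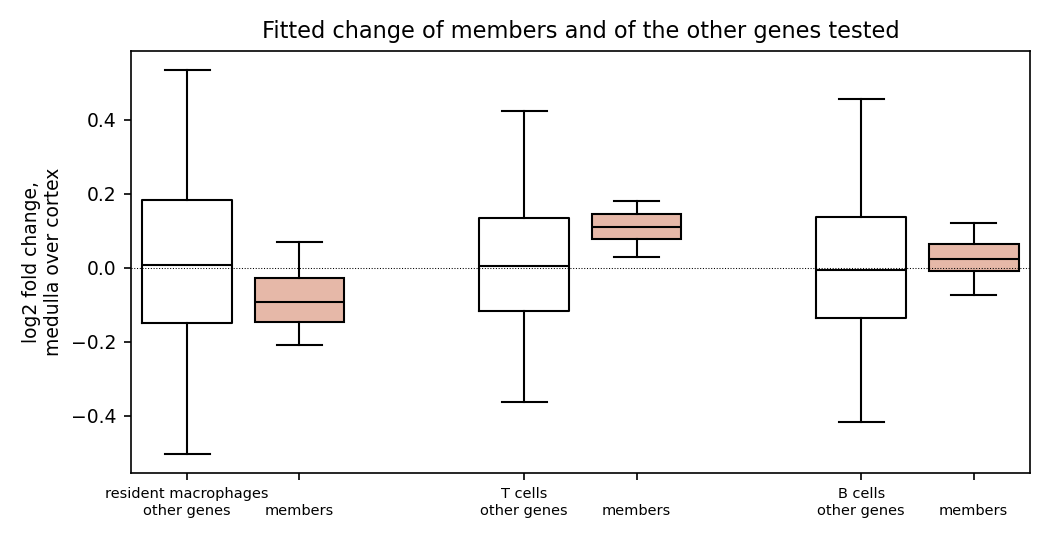
Fitted log2 fold change of medulla over cortex (y axis) in 3 cell classes, for the members (filled boxes) and for the other genes tested (open boxes). Boxes give the quartiles and the median and whiskers the 5th and 95th percentiles. Members form a narrow band, below 0 in resident macrophages and above 0 in T cells.

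The fitted values of the members lay in a narrow band, and none passed the test. Their median log2 fold change was -0.09 in resident macrophages, where 15 of 78 were above 0, against 0.01 over all genes tested. In T cells the median was 0.11 with 76 of 78 above 0, against 0.0045 over all genes. It was 0.02 in B cells (56 of 78), -0.02 in cDCs (30 of 78) and 0.10 in NK cells (71 of 78). Members of 1 library rise and fall together, so these counts are not independent, and they are given without a test. Leaving out each facility in turn gave medians from -0.19 to -0.05 in resident macrophages and from 0.06 to 0.16 in T cells, and without Aachen the median was 0.01 in NK cells and -0.03 in B cells. Chosen after its value was seen, as the lowest unadjusted p in T cells, Rps28 of the small subunit had a log2 fold change of 0.27 ± 0.10 (SE) and an adjusted p of 0.76 by edgeR. Its differences by facility were 0.32, 0.20 and 0.27.

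OM against IM gave the same result, with 0 of 78 members called in each of the 5 classes. The fits called 0% of all genes in resident macrophages and in T cells, 0.0673% in B cells, 0.110% in cDCs and 0.0299% in NK cells. Members at an unadjusted p under 0.05 by edgeR numbered 1, 11, 5, 10 and 1 in that order. All genes at that threshold numbered 267 of 8687, 309 of 8957, 348 of 8911, 338 of 7293 and 88 of 3341. The members' counts are again not independent, and DESeq2 again called 0 members in each class. Rps27l had the lowest unadjusted p in T cells, at a log2 fold change of 0.49 ± 0.14 with an adjusted p of 0.99996 by edgeR, and its OM minus IM differences were 0.47, 0.45 and 0.51 in Aachen, Bonn and Hamburg.

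Whether the change toward medulla differed between resident macrophages and T cells was tested directly as an interaction. Of 78 members 0 were called (0.440% of all 10004 genes). By edgeR 4 members had an unadjusted p under 0.05, as did 831 of all genes. DESeq2 called 0 members, with 25 at an unadjusted p under 0.05. The median difference of the members was -0.18 against 0.02 over all genes. The lowest p belonged to Rps26, of the small subunit and named after its value was seen, at -0.34 ± 0.15 with an adjusted p of 0.54 by edgeR.

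Facility gave the largest differences among these members. Aachen was compared with the mean of Bonn and Hamburg within a class, with the compartment in the model. Facility, mice, library preparation, depth and the set of gene columns that received counts cannot be told apart. In the facility fits the spread is that between the compartments within a facility. Their SEs and p-values therefore do not measure how much facilities vary. In resident macrophages 56 of 78 members were called, 50 higher and 6 lower in Aachen, where 49.5% of all genes were called. In T cells 57 were called (44 higher and 13 lower, 46.5% of all genes), and in B cells 62 (56 higher and 6 lower, 37.4%). Thus 44 members were called higher in all 3 classes, 5 lower in all 3, and 0 in opposite directions in different classes. The 44 included Rpl6l, which was counted in Aachen only. These counts depend on the scale. With library totals in place of TMM factors, the median of all genes shifted from -0.03, -0.04 and -0.15 to -0.59, -0.54 and -0.73 and the members split into 32 higher and 28 lower for resident macrophages, 31 and 36 for T cells, and 33 and 30 for B cells. On that scale 30 of the 44 remained higher in all 3 classes, all 5 remained lower, and 12 members were called the other way in at least 1 class.

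**Figure D5:**
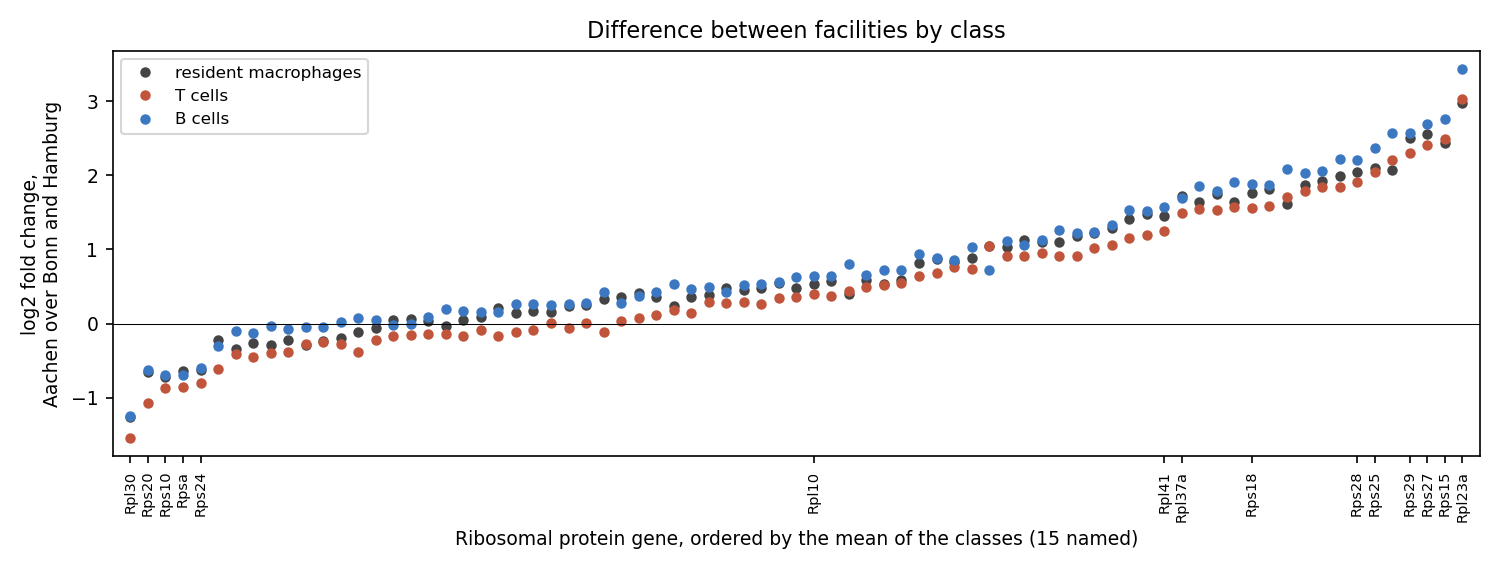
Fitted log2 fold change of Aachen over the mean of Bonn and Hamburg (y axis, TMM scale) for 77 members (x axis, some named), with 1 point for each of 3 cell classes. Rpl6l, counted in Aachen only, is left out. The 3 classes keep nearly the same order, from Rpl30 at the lower end to Rpl23a at the upper end.

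Rpl23a stood at 37.2, 43.6 and 35.4 UMIs per 10000 in T cells of Aachen cortex, OM and IM. It stood at 6.82, 7.62 and 6.48 in Bonn and at 6.13, 6.60 and 6.95 in Hamburg, so every Aachen library lay above every other. Its log2 fold change was 3.02 ± 0.09 (SE, adjusted p = 7.1e-14 by edgeR). Rps27 gave 155.3, 178.2 and 152.8 in Aachen T cells, 51.7, 68.1 and 46.5 in Bonn and 33.3, 34.4 and 35.6 in Hamburg, a log2 fold change of 2.40 ± 0.09 (adjusted p = 1.2e-12 by edgeR). Rps15 (2.49), Rps29 (2.303) and Rps25 (2.05) were also higher in T cells. All 5 were called higher in resident macrophages and B cells too, also with library totals.

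Rpl30, a large-subunit protein, went the other way. In T cells it stood at 11.62, 11.97 and 11.25 UMIs per 10000 in Aachen, at 49.97, 46.0 and 46.8 in Bonn and at 44.8, 49.6 and 51.1 in Hamburg, without overlap. Its log2 fold change was -1.54 ± 0.10 (adjusted p = 1.4e-09 by edgeR). Rps20 fell by 1.07, Rps10 by 0.87, Rpsa (the laminin receptor, also a small-subunit protein) by 0.86 and Rps24 by 0.81 on the log2 scale in T cells. These are the 5 members that were lower in all 3 classes on either scale.

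Bonn and Hamburg differed less. In resident macrophages 6 of 78 members were called, all higher in Bonn (12.8% of all genes called). In T cells 17 were called (15 higher and 2 lower, 19.0%) and in B cells 29 (28 higher and 1 lower, 22.3%). Rps27, Rps28, Rps29, Rps18, Rps19 and Rpl37a were higher in Bonn in all 3 classes, also with library totals. Rps29 stood at 38.4, 53.2 and 33.5 UMIs per 10000 in T cells of Bonn and 21.2, 22.9 and 23.4 in Hamburg, a log2 fold change of 0.76 ± 0.12 (adjusted p = 0.00018 by edgeR). Rps15 was lower in Bonn T cells, at -0.43 ± 0.11 (adjusted p = 0.0096 by edgeR).

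Several measures moved with the facility beside these members, and their part in the differences was not tested. The 8 immediate early genes, which dissociation is known to induce, summed to 82.1, 32.5 and 131 UMIs per 10000 in T cells of Aachen, Bonn and Hamburg. The 6 markers of resident macrophages (C1qa, C1qb, C1qc, Cd81, Csf1r and Adgre1) summed to 16.2, 1.09 and 0.556 in the same T cells and to 221, 238 and 183 in the macrophages themselves. Names of genes also differed: the column Gnb2l1 had UMIs in Aachen only in these classes, and Rack1, the same gene under its newer name, in Bonn and Hamburg only.

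Near-identical copies could take reads from a member. By shared 31-base words in the GENCODE vM21 transcripts, 36 other columns matched a member in at least 20% of their words, 27 of them annotated as pseudogenes, for 24 members. They held 3.48% of all UMIs in Aachen against 0.0144% in Bonn and 0.0134% in Hamburg. At least 1 UMI was counted in 34 of these columns in Aachen, 9 in Bonn and 9 in Hamburg. Rps27rt, which shares 91.6% of its words with Rps27, alone held 75.4 UMIs per 10000 in Aachen, 0.586 in Bonn and 0.457 in Hamburg. Rpl23a-ps3, Gm10263 (a copy of Rps28), Gm2000 (of Rpl35) and Gm10076 (of Rpl41) held 23.1 to 30.1 UMIs per 10000 in Aachen. Levels of these members and their copies are uncertain, since reads may have been split differently.

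Adding the copies to their member raised the Aachen ratio of some members and brought that of others near 1. The Aachen level of Rpl23a was 5.39 times the mean of Bonn and Hamburg without its copy and 9.77 times with it, and for Rps27 the ratio went from 3.52 to 5.85. With the copies added, edgeR called 61 members in resident macrophages (56 higher and 5 lower), 59 in T cells (50 and 9) and 65 in B cells (59 and 6). Rps26 went from 0.541 to 0.931 times, Rps7 from 0.599 to 0.965 and Rps12 from 0.565 to 0.969. In resident macrophages Rpl7a turned from -0.34 to 0.33 (log2). The members Rpl30, Rps20, Rpsa, Rps10 and Rps24 had no copy by this measure, and their ratios stayed at 0.246, 0.345, 0.366, 0.368 and 0.394.

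Summed over all cells the members took 20.4%, 20.7% and 18.3% of UMIs in Aachen, Bonn and Hamburg, with the copy columns left out. The facilities were closer in this total than in members such as Rps27 or Rpl30. The total also differed within a class. In the same order, the mean of the libraries was 29.8%, 26.6% and 22.2% in B cells and 27.0%, 26.5% and 24.4% in T cells. It was 14.0%, 13.1% and 10.9% in resident macrophages.

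The related lists were set beside the members. The 8 genes of the P-stalk, fusion and associated list (among them Rplp0, Rplp1, Rplp2, Fau and both names of Rack1) summed to 109.1 to 139.9 UMIs per 10000 in resident macrophages and 192.1 to 228.8 in T cells, the same direction as the members. The 15 other TOP genes, mostly elongation and initiation factors, summed to 45.6 to 124.4 and 105.3 to 236.8. Ribosome biogenesis genes (20) summed to 6.02 to 9.46 and 9.38 to 13.9, and the 78 mitochondrial ribosomal genes to 24.9 to 33.6 and 39.5 to 49.4. Between medulla and cortex in resident macrophages edgeR called 0 of 8, 15, 19 and 77 tested genes of these lists. At an unadjusted p under 0.05 by edgeR they numbered 2, 1, 2 and 2, beside 878 of all 8687 genes. DESeq2 called 0 of each list. Their median log2 fold changes there were -0.05, -0.15, -0.05 and 0.04, beside -0.09 for the members. In T cells edgeR and DESeq2 likewise called 0 of each list. There 0, 0, 1 and 1 had an unadjusted p under 0.05 by edgeR, beside 515 of all 8957 genes. Between Aachen and the other facilities in T cells, where 46.5% of all genes were called, 5 of the 15 other TOP genes were called higher and 7 lower, and 35 of 78 mitochondrial ribosomal genes were called higher and 5 lower.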

How the data were processed

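The analysis started from 1 deposited table of cells by genes that also gives each cell's compartment, facility and cluster. Per the labels the authors used Cell Ranger and Seurat with the build mm10; the deposited values are estimated counts, whole in Aachen and Bonn and not whole in Hamburg, which was not explained in the sources used here. Cells held 201 to 3999 detected genes. No further cell filter and no doublet caller was applied, and the authors' clusters were used. Estimated counts were summed for each class and library (at least 10 cells) and rounded. Sums were fitted in edgeR 4.0.16 (R 4.3.3; filterByExpr, TMM, quasi-likelihood test), with DESeq2 1.42.0 as an alternative. The share is the summed members over all UMIs. The composition used a pseudocount of 0.5. Some genes are not reported here by name. Named members were the highest and lowest detected, the paralogs, the members with constant sign between lymphocytes and macrophages, and those called with the largest change. The pipeline was tested on simulated data. Other settings were the scaling, the filter, the block and leaving out each facility. The members and lists were chosen with earlier results of these data known.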

Additional observations from a re-analysis of the deposited data

Results flagged for a closer look

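Medulla minus cortex of the share had the same sign in all 3 facilities in some classes and clusters, which were picked here for that agreement. The sign was not the same in all of these, and the difference between them was not tested. In every other class and cluster with values in all 9 libraries the sign varied with the facility. NK_cell_2 is part of the NK cells and is not a separate case. The share difference was above 0 in 3 of 3 facilities in NK cells (mean 0.978 percentage points), NK_cell_2 (1.35), T_cell_1 (1.93) and cDC2 (0.914). In T_cell_3 it was below 0 in 3 of 3 (mean -0.716). The T_cell_3 values were -2.00 in Aachen, whose cortex held 40 of these cells, -0.022 in Bonn and -0.128 in Hamburg. Its mean thus came mostly from Aachen. Columns that copy a member, which the comparisons left out, held 3.48% of the UMIs in Aachen.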

How the results depend on the processing

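All 89 alternative fits of the compartment and interaction comparisons called 0 members; they covered library totals without TMM, TMM from the other genes, and DESeq2. For the compartments alone they also covered no replicate block, no filter on low counts, leaving out each facility (0 to 0 called) and leaving out Macrophage_3, T_cell_3 or B_cell_3, the last chosen after seeing the data; these were not run for the interaction. Of 36 alternative fits of the facility comparisons, 35 gave a count within 1.5 times; with library totals without TMM, Bonn against Hamburg in resident macrophages called 19 members in place of 6. Of 342 alternatives for members named in the facility comparisons, 337 stayed past the threshold in the same direction and 4 did not pass it. In resident macrophages Rpl7a was lower in Aachen by -0.34 (log2) but higher by 0.33 with its copies added, an alternative chosen after seeing the data. All 33 alternatives for the difference in share lay within 1 SD over facilities. Leaving out 1 of 3 facilities cannot move a mean past that limit, so those alternatives could not have failed. A change of sign, as in cDCs, also counted as within it. Leaving out a facility gave differences from -1.50 to -0.179 points in resident macrophages and from 0.718 to 2.42 in T cells. They ran from 0.0588 to 0.938 in B cells, from -0.374 to 0.544 in cDCs and from 0.481 to 1.43 in NK cells. In cDCs the mean of the cells' shares gave -0.479 in place of 0.186. The compartments were paired by facility as the block, since the labels number no replicates. Without that replicate block 0 of 8228 genes were called between medulla and cortex in resident macrophages, against 108 of 8687 with it, and 0 members with either. Simulated data used to test the pipeline held changes of set sizes only, and the smallest change that 3 facilities could show was not determined. Bonn OM held 19 NK cells.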
